A study of Equus caballus with 10 samples.

Results

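The thrombospondins are secreted calcium-binding glycoproteins of the extracellular matrix that bind collagens, fibronectin, growth factors and cell-surface receptors. THBS1 and THBS2 assemble as trimers and act on cell adhesion, blood vessel growth and, for THBS1, the release of active TGF-β from its latent complex. THBS3, THBS4 and COMP (cartilage oligomeric matrix protein, also called thrombospondin-5) assemble as pentamers. COMP is abundant in load-bearing tendon, where it binds collagen and assists fibril assembly, and THBS4 is a marker of tendon and its muscle attachment.

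The 5 thrombospondin family genes THBS1, THBS2, THBS3, THBS4 and COMP were found by gene name among the 29196 genes of the deposited table, and all 5 passed the filter on low values, with 17992 genes tested. RNA was sequenced from primary tenocytes (tendon cells) of adult horses, grown from the superficial digital flexor tendon, passaged, and cultured in 3D gels of bovine type I collagen for 14 days. Cells of 5 donors were split between 2 groups, with 1 library per donor and group. All 10 libraries had received PF-06650833, an inhibitor of IRAK-4, the kinase downstream of the interleukin-1 receptor, daily at 100 nM. The PF + IL-1β group also received IL-1β at 17 ng/ml at each media change, and the PF group did not. The comparison therefore asks how these genes differed with IL-1β while the inhibitor was present, and libraries without PF-06650833 were not analysed here. Sequences and transcript lengths of these genes were not used here, so levels are compared between libraries and not between genes.

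The deposited values are log2 values after a variance-stabilizing transformation, on which 0 reads stands at 3.43 and differences between genes with few reads are compressed. Estimated reads on genes numbered between 26672336 and 36058789 per library. Of the tenocyte markers SCX, MKX, TNMD, EGR1, COL1A1, COL1A2, COL3A1, DCN, FMOD and LUM, 8 could be tested and were expressed, TNMD (tenomodulin, a late tendon marker) was at 0 reads in all 10 libraries, and COL3A1 was not analysed here. SCX and MKX, transcription factors of the tendon lineage, were lower in the PF + IL-1β group in limma (adjusted p = 6.11e-04 and 0.00554), and 4 of the 8 were lower when a term for the donor (the replicate block) was added to the fit. The other 6 were not called without the block, and of these DCN, EGR1 and LUM had log2 fold changes above 0 (1.01, 0.47 and 0.33). Because bulk RNA was measured, fewer cells of a type and less RNA per cell cannot be told apart.

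Of the 5 genes, 4 fell in the PF + IL-1β group and 0 rose. COMP, THBS2 and THBS1 fell by 3.63, 3.53 and 2.85 on the log2 scale, a 12.4-fold, 11.5-fold and 7.19-fold lower level, and THBS3 fell by 1.33, a 2.52-fold lower level. THBS4 had a log2 fold change of -1.22 that did not pass the test. The call needed an adjusted p below 0.05 in limma and a change of 1 or more on the log2 scale in either direction. Of all tested genes 6.68% were called, 3.57% as lower and 3.11% as higher. The same 4 genes were called with the replicate block, where 8.26% of tested genes were called, 4.25% as lower and 4.01% as higher. The groups did not overlap for THBS2, THBS3 and COMP, against 6.41% of tested genes that were lower without overlap and 12.7% without overlap in either direction. The level was lower in 5 of 5 donors for THBS1, THBS2, THBS3 and COMP, as it was for 16.8% of tested genes.

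**Figure D1:**
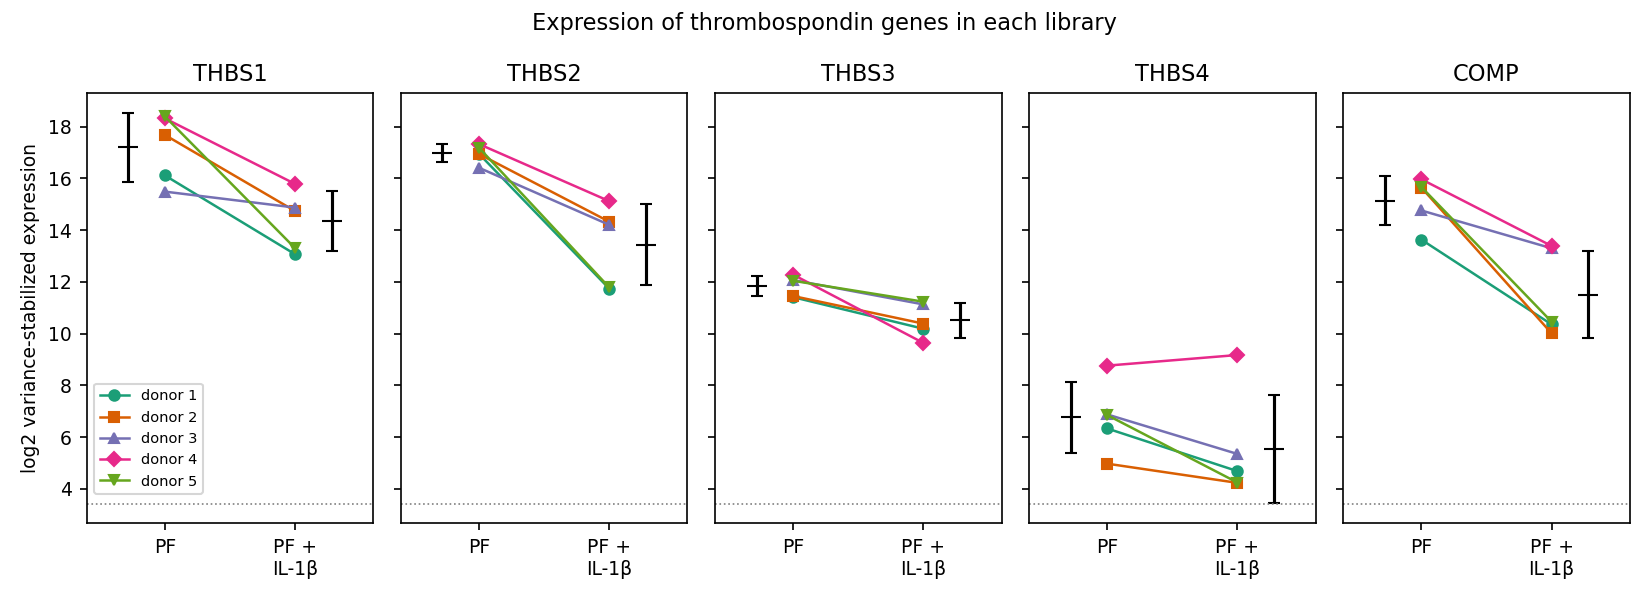
Log2 variance-stabilized expression (y axis) of THBS1, THBS2, THBS3, THBS4 and COMP in the 5 libraries of the PF group and the 5 of the PF + IL-1β group, where each coloured line joins the libraries of 1 donor, black bars are the mean ± SD and the dotted line marks 0 reads. All lines go down except that of THBS4 in donor 4, which goes from 8.76 to 9.17.

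THBS1 encodes thrombospondin-1, which binds CD47 and CD36 and activates latent TGF-β. Its log2 expression in the PF group was 16.11, 17.68, 15.49, 18.32 and 18.39 in donors 1 to 5. In the PF + IL-1β group it was 13.07, 14.73, 14.87, 15.78 and 13.30. The groups overlapped, because donor 3 in the PF group was below donor 4 in the PF + IL-1β group, while the level was lower in 5 of 5 donors. Mean expression was 17.20 ± 1.32 (SD, n = 5) in the PF group and 14.35 ± 1.14 (SD, n = 5) in the PF + IL-1β group, and the difference of -2.85 had a standard error of 0.67 (limma, adjusted p = 0.0162). With the replicate block the standard error was 0.53 and the adjusted p 0.0083. Donor 3 had the smallest change, -0.62, and kept 65.2% of its normalized count (reads divided by the library's size factor). Donor 5 had the largest, -5.09, and kept 2.92%. Without both libraries of donor 1, 2 or 5 the call was lost in the fit with no block (adjusted p = 0.052, 0.0719 and 0.0912), and with the block it held without each of the 5 donors.

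THBS2 encodes thrombospondin-2, a matrix protein that limits blood vessel growth and helps clear MMP2, and whose loss in mice gives disordered collagen fibrils. In the PF group the 5 donors lay close together, at 16.95, 16.94, 16.41, 17.32 and 17.18 on the log2 scale. In the PF + IL-1β group they were at 11.74, 14.32, 14.20, 15.12 and 11.79. Every library with IL-1β was below every library without it, and donors 1 and 5 were far below the others. The group means were 16.96 ± 0.35 (SD, n = 5) and 13.43 ± 1.57 (SD, n = 5), and they differed by -3.53 with a standard error of 0.62 (limma, adjusted p = 0.00386). Donors 1 and 5 kept 2.69% and 2.36% of their normalized count, and donors 2, 3 and 4 kept 16.3%, 21.7% and 21.7%. The SD between donors was 4.49 times as large with IL-1β, a ratio that 1.55% of tested genes exceeded, and the median ratio of all genes was 1.11. THBS2 had the largest ratio of the 5 genes. Those of THBS1, THBS3, THBS4 and COMP were 0.86, 1.69, 1.53 and 1.77, which 67.6%, 23.4%, 28.4% and 21% of tested genes exceeded. THBS2 was called without any 1 library and without any 1 donor, with adjusted p-values between 0.00154 and 0.0236 from limma.

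THBS3 encodes thrombospondin-3, a pentameric member that acts in skeletal maturation. Its log2 expression was 11.41, 11.45, 12.07, 12.28 and 12.04 in the PF group, and 10.19, 10.39, 11.13, 9.64 and 11.23 in the PF + IL-1β group. The groups did not overlap, although the lowest library without IL-1β and the highest with it were close. The means of 11.85 ± 0.39 (SD, n = 5) and 10.52 ± 0.67 (SD, n = 5) differed by -1.33 with a standard error of 0.30 (limma, adjusted p = 0.0129). Donor 4 fell most, to 15.7% of its normalized count, and the other 4 donors kept between 42.5% and 56.9%. THBS3 was called without any 1 library and without any 1 donor, with adjusted p-values between 0.00902 and 0.0491 from limma. Without both libraries of donor 4 its log2 fold change was -1.01, close to the minimum for a call.

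THBS4 encodes thrombospondin-4, a pentameric protein of tendon and muscle matrix, and was measured from few reads. Its normalized count, obtained by inverting the transformation, was 60.6, 13.6, 97.0, 413 and 95.1 in donors 1 to 5 in the PF group. In the PF + IL-1β group it was 8.69, 3.42, 22.1, 556 and 3.53, and over all 10 libraries 1 read is worth between 1.04 and 1.41 normalized counts. Donor 4 was the highest library of both groups, and it was the only donor in which THBS4 was higher with IL-1β, at 135% of its count without it. The other 4 donors kept 14.3%, 25.2%, 22.8% and 3.71%. On the log2 scale the mean was 6.76 ± 1.36 (SD, n = 5) and 5.54 ± 2.08 (SD, n = 5), and the log2 fold change of -1.22 (95% interval -3.32 to 0.87, adjusted p = 0.437 from limma) was within the spread between libraries. With the replicate block the adjusted p was 0.0605. Without the library of donor 4 in the PF + IL-1β group the log2 fold change was -2.13 (adjusted p = 0.0384), and without both libraries of donor 4 it was -1.63 (adjusted p = 0.0419, and 0.0124 with the block), each past the threshold.

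COMP was at 13.63, 15.64, 14.76, 15.96 and 15.67 on the log2 scale in donors 1 to 5 in the PF group. It was at 10.36, 10.01, 13.30, 13.39 and 10.46 in the PF + IL-1β group. The groups did not overlap, and with IL-1β the libraries lay in a low set of donors 1, 2 and 5 and a higher pair of donors 3 and 4. Between the means of 15.13 ± 0.95 (SD, n = 5) and 11.50 ± 1.69 (SD, n = 5) the difference was -3.63, with a standard error of 0.74 (limma, adjusted p = 0.00794). Donor 2 kept 1.97% and donor 5 kept 2.67% of the normalized count, and donor 3 kept 36.3%. Without both libraries of donor 2 or of donor 5 the adjusted p was 0.0509 and 0.0517 in the fit with no block, and COMP was called without each of the 5 donors with the block. Ordered by log2 fold change from the largest decrease, COMP stood at place 27 and THBS2 at place 28 of 17992 tested genes, THBS1 at 61, THBS3 at 457 and THBS4 at 555.

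**Figure D2:**
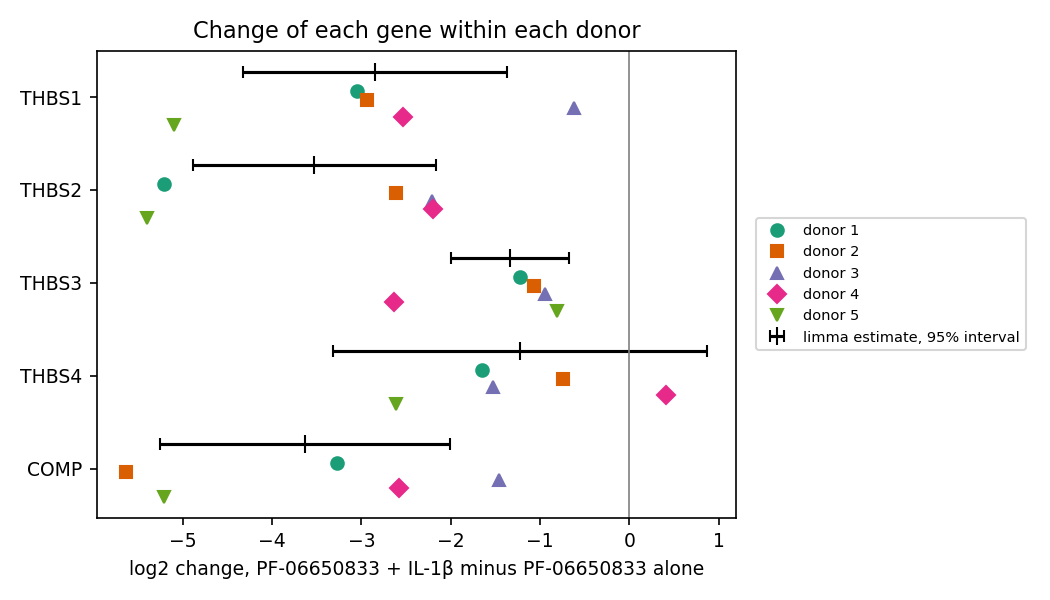
Log2 change within each donor (x axis, PF + IL-1β minus PF) for the 5 genes, with 1 coloured point per donor and, above the points, the limma estimate with its 95% interval in black. Donor 5 has the largest fall in THBS1, THBS2 and THBS4, donor 2 in COMP and donor 4 in THBS3, and the only point above 0 is THBS4 in donor 4, at 0.41.

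The donors differed in which gene fell most. In donor 5 the log2 changes of THBS1, THBS2 and COMP were -5.09, -5.40 and -5.21, while that of THBS3 was -0.81, the smallest of THBS3 in any donor. In donor 4 the changes of THBS1, THBS2, THBS3 and COMP all lay between -2.64 and -2.20. In donor 3, THBS1 changed by -0.62 and COMP by -1.46, in both genes the least of the 5 donors. Across all tested genes, both libraries of a donor leaned the same way from their group means, with correlations of 0.367 to 0.506 in the 5 pairs.

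Together the 5 genes took 0.581%, 1.05%, 0.473%, 1.44% and 1.46% of the normalized counts of donors 1 to 5 in the PF group. In the PF + IL-1β group they took 0.0397%, 0.132%, 0.178%, 0.274% and 0.0477%. The groups did not overlap in this share, which weights long transcripts more than short ones. The 10 genes with most reads in each library took 7.07% to 9.39% of normalized counts in the PF group and 5.36% to 8.16% with IL-1β, and the part of this shift in the result was not tested. When each library was centred on its median, THBS1, THBS2, THBS3 and COMP were again called as lower.

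**Figure D3:**
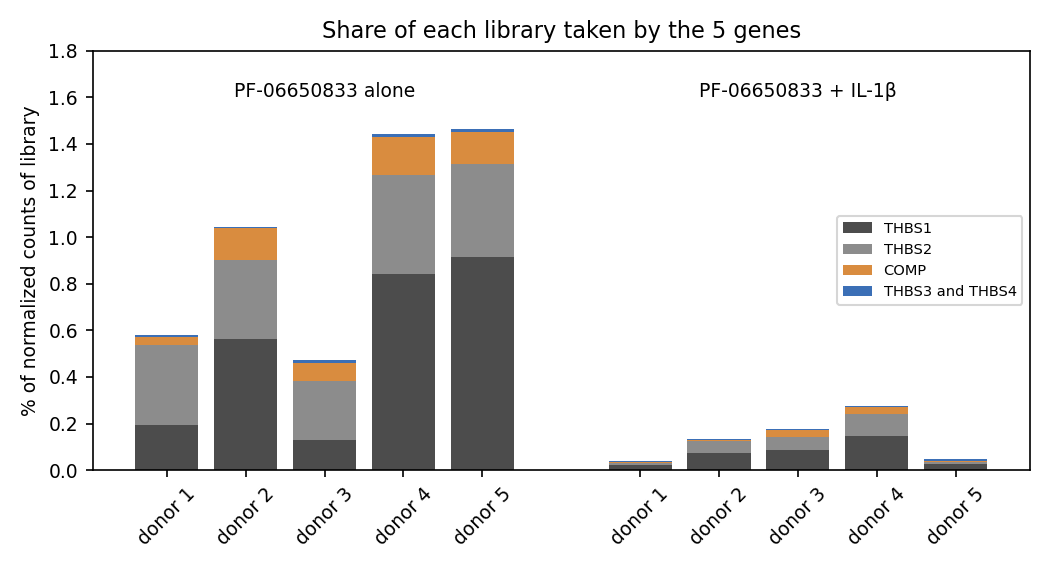
Share of the normalized counts of each library (y axis, per cent) taken by THBS1, THBS2, COMP, and THBS3 with THBS4, stacked, for donors 1 to 5 in both groups. The bars in the PF group reach between 0.473% and 1.46%, and those in the PF + IL-1β group between 0.0397% and 0.274%.

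Whether the genes changed by different amounts was tested on the log2 ratio of each pair of genes within a library, over 10 pairs. A ratio depends on the lengths of both transcripts, so it is compared between groups only. With Benjamini-Hochberg adjustment 0 pairs passed, and 3 had an unadjusted p below 0.05 in the exact two-sided permutation test. The ratio of THBS4 to COMP rose by 2.41 on the log2 scale, from -8.37 ± 1.44 (SD, n = 5) to -5.96 ± 1.34 (SD, n = 5; exact p = 0.0317, adjusted p = 0.159), and it rose in 4 of 5 donors. The ratio of THBS2 to THBS3 changed by -2.19 (exact p = 0.0397, adjusted p = 0.159) and that of THBS2 to THBS4 by -2.30 (exact p = 0.0476, adjusted p = 0.159). THBS2 changed further downward than THBS3 in 4 and than THBS4 in 5 of 5 donors. THBS4 was measured from few reads, where differences on this scale are compressed. On log2 of normalized count plus 1, the ratio of THBS4 to COMP rose by 1.55 (exact test, adjusted p = 0.42). On that scale the ratio of THBS2 to THBS4 changed by -1.44 (adjusted p = 0.42) and that of THBS2 to THBS3 by -2.18 (adjusted p = 0.317). COMP fell more than THBS1 in 5 of 5 donors, by 0.04 to 2.69 (difference of the ratio between groups 0.78, exact p = 0.294, exact sign-flip p = 0.0625). The ratio of THBS2 to COMP changed by 0.10 (exact p = 0.841), with differences within single donors between -1.93 and 3.02. These donor differences leave room for unequal changes of either sign. With 5 libraries in each group the smallest exact p is 0.00794, and a sign-flip test over the 5 donors cannot go below 0.0625.

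The genes whose products bind, cleave or respond to thrombospondins were taken from lists. These lists were chosen with earlier results of these data known. Their shares beside those of all tested genes, here and in the next paragraphs, are therefore descriptions and not tests of the lists. Of all tested genes 3.57% were called as lower and 3.11% as higher, and 29.7% had an unadjusted p below 0.05 from limma. The share of all tested genes that were higher in 5 of 5 donors was not counted here. Of 14 thrombospondin receptors, 13 could be tested, and 1 rose and 1 fell, with a median log2 fold change of 0.06 against -0.01 over all tested genes. An unadjusted p below 0.05 was reached by 46.2% of the tested receptors. CD36, a scavenger receptor that binds THBS1, was at 0 reads in all 10 libraries. CD47, the other main THBS1 receptor, was higher in 5 of 5 donors with a log2 fold change of 0.79 (adjusted p = 0.011 from limma), under the minimum fold change. ITGA9, an integrin subunit, fell from 10.69 ± 0.35 (SD, n = 5) to 9.23 ± 0.59 (SD, n = 5) (adjusted p = 0.00479 from limma). ITGA4, the integrin subunit that pairs with ITGB1 as a receptor for fibronectin and thrombospondins, rose by 1.11 (adjusted p = 0.0241 from limma) and was higher in 5 of 5 donors. Its log2 fold change was 0.91 without the library of donor 4 with IL-1β and 0.96 without that of donor 2, both under the minimum, and the adjusted p was 0.0528 and 0.051 without the library of donor 2 or 5 in the PF group. Without both libraries of donor 1, 2, 4 or 5 ITGA4 was not called either in the fit with no block. With the block ITGA4 was called in 3 of the 5 fits that each left out 1 donor. LRP1, which takes up thrombospondins together with bound proteases, had a log2 fold change of -0.91, under the minimum, and was lower in 5 of 5 donors. Its adjusted p from limma was 0.116, and 0.0176 with the replicate block.

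Of 16 matrix proteins that bind COMP or other thrombospondins or share fibrils with them, 12 could be tested, and 4 fell and 0 rose, with a median log2 fold change of -1.18. An unadjusted p below 0.05 was reached by 66.7% of those tested, against 29.7% of all tested genes. ACAN (aggrecan), the large proteoglycan of cartilage and compressed tendon, had the largest decrease of all tested genes, from 12.75 ± 0.63 (SD, n = 5) to 6.46 ± 1.22 (SD, n = 5), with changes of -7.90 to -5.19 in single donors (limma, adjusted p = 9.8e-05). COL12A1, a collagen on the surface of fibrils, fell from 16.56 ± 0.56 (SD, n = 5) to 13.82 ± 1.17 (SD, n = 5) (adjusted p = 0.00473 from limma). MATN2, a matrilin of filamentous matrix networks, fell from 9.70 ± 1.09 (SD, n = 5) to 6.55 ± 1.10 (SD, n = 5) (adjusted p = 0.00554 from limma). FN1 (fibronectin) fell by 1.41 (adjusted p = 0.0369 from limma). In the fit with no block its adjusted p was between 0.0551 and 0.104 without the library of donor 1, 2, 4 or 5 in the PF group or of donor 1, 2 or 5 with IL-1β. It was up to 0.158 without both libraries of donor 1, 2 or 5. With the block FN1 was called in 4 of the 5 fits that each left out 1 donor. COL1A1 and COL1A2, the chains of type I collagen, had log2 fold changes of -1.38 and -1.28 (adjusted p = 0.0682 and 0.0614 from limma). With the replicate block both were called as lower (adjusted p = 0.0147 and 0.0169). DCN (decorin) had a log2 fold change of 1.01 (adjusted p = 0.268 from limma), and was higher in 5 of 5 donors, by 0.04 to 1.99.

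Of 11 proteases that cleave thrombospondins or COMP or are cleared with THBS2, 11 could be tested, and 3 rose and 0 fell, with a median log2 fold change of 0.73. An unadjusted p below 0.05 was reached by 63.6% of them, against 29.7% of all tested genes. MMP1 (interstitial collagenase) went from 8.57 ± 2.99 (SD, n = 5) to 14.54 ± 2.26 (SD, n = 5) (adjusted p = 0.0165 from limma), and MMP3 (stromelysin) from 5.96 ± 1.03 (SD, n = 5) to 11.36 ± 2.47 (SD, n = 5) (adjusted p = 0.00542). Both were higher in 5 of 5 donors. MMP9, a gelatinase, rose by 2.09 (adjusted p = 0.0182 from limma) and was higher in 4 of 5 donors. In the fit with no block, the adjusted p of MMP9 was 0.103, 0.0719 and 0.0703 without both libraries of donor 1, 2 or 5. That of MMP1 was 0.0678 and 0.0919 without those of donor 1 or 5. With the block MMP1 was called without each of the 5 donors, and MMP9 in 3 of those 5 fits. ADAMTS7 and ADAMTS12, which digest COMP, had log2 fold changes of 0.81 (adjusted p = 0.0557 from limma) and 0.54 (adjusted p = 0.178), both under the minimum. With the replicate block their adjusted p was 0.00835 and 0.144. ADAMTS4, an aggrecanase that also cleaves COMP, was at 0.72 (adjusted p = 0.0131), under the minimum fold change.

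Of 13 genes of TGF-β ligands, receptors, transducers and responses, 13 could be tested and 0 were called in limma, with 4 at an unadjusted p below 0.05 (30.8%, against 29.7% of all tested genes) and a median log2 fold change of -0.19. With the replicate block 1 of them was called, TGFBI, a collagen-binding matrix protein induced by TGF-β, with a log2 fold change of -1.16 (adjusted p = 0.0129, against 0.128 with no block). TGFB1, the latent ligand that THBS1 activates, had a log2 fold change of -0.27 (adjusted p = 0.643 from limma), and CCN2, listed under its older symbol CTGF, of -0.54 (adjusted p = 0.474).

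**Figure D4:**
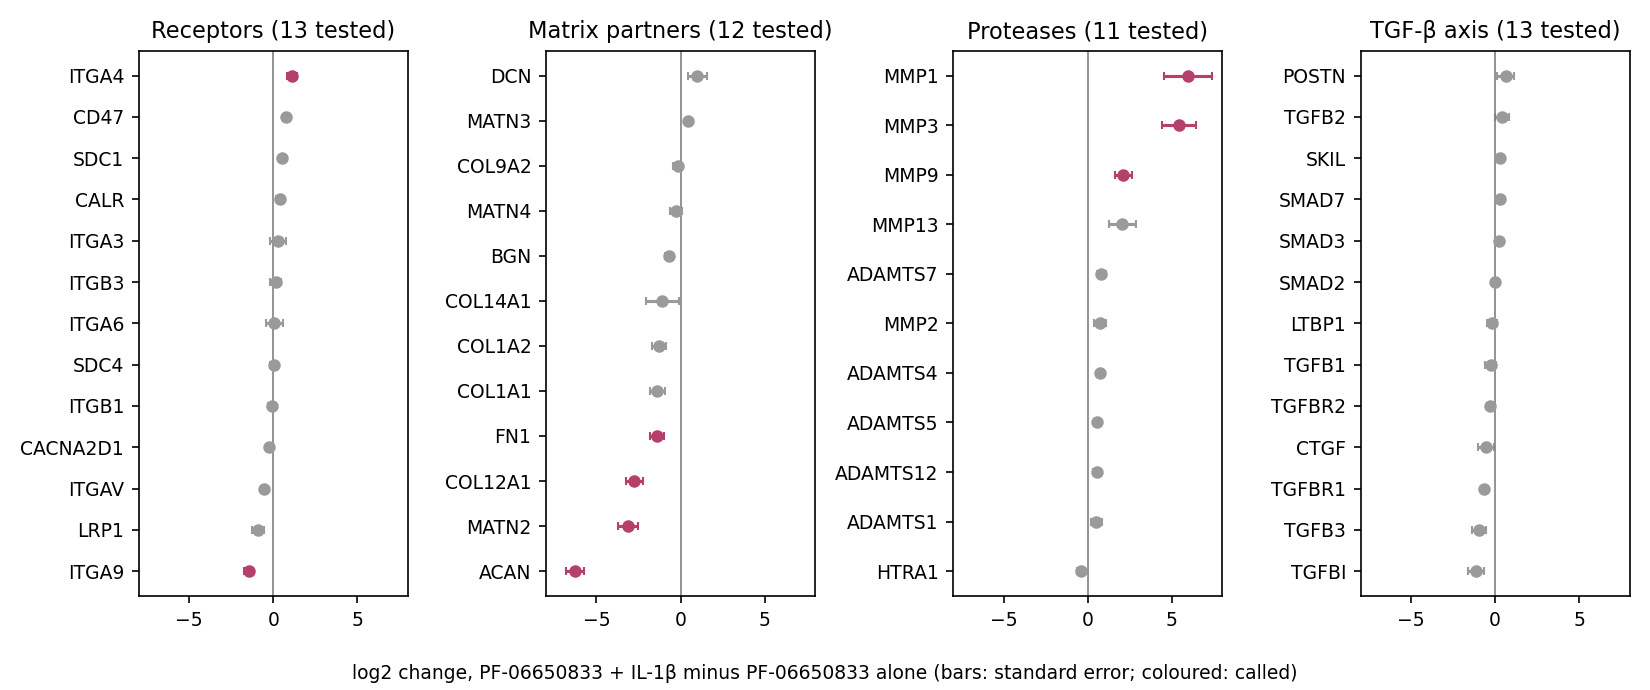
Log2 change (x axis, PF + IL-1β minus PF) of each tested gene of the receptor, matrix partner, protease and TGF-β lists, with bars for the standard error from limma, coloured where the gene was called. The called genes are 2 receptors on opposite sides of 0, 4 matrix partners below 0 and 3 proteases above 0.

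The genes with a profile over the 10 libraries most like that of each called gene were found by the root mean square distance between centred log2 profiles, among 13864 other tested genes with a symbol. Nearest to THBS1 were MATN2 (distance 0.39), ZBTB16 (0.40), a zinc-finger transcription factor, and COL11A1 (0.49), a fibrillar collagen chain. Nearest to THBS2 were COL11A1 (0.43), COL12A1 (0.65) and GXYLT2 (0.71), a xylosyltransferase, and nearest to COMP were WSCD2 (0.52), TENM4 (0.66) and COLEC12 (0.73). Nearest to THBS3 were SLC43A1 (0.26), an amino acid transporter, ARAP2 (0.36) and MTHFD1L (0.36), a mitochondrial folate enzyme. ARAP2 had few reads, with means of 4.69 in the PF group and 3.84 in the PF + IL-1β group, and was not called (limma, adjusted p = 0.0788). Its log2 fold change was -0.85, and -2.10 on log2 of normalized count plus 1, so its distance depends on the scale. Between the 5 genes themselves, THBS1 and THBS2 were closest, at 0.80. THBS3 and THBS4 were farthest, at 1.76, near THBS3 and COMP at 1.74 and THBS2 and THBS4 at 1.73. The profiles were centred but not scaled, so a distance also takes in the size of the change between groups and the spread between libraries.

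Some markers of other cell types moved with the groups, and their part in the results was not tested. Of 6 leukocyte markers 3 could be tested and 1 was called, CD68, which rose by 1.70, with PTPRC above 0 in 1 library and CD3E at 0 in all. Their normalized counts summed to 214 to 305 in the PF group and 344 to 920.3 in the PF + IL-1β group. Of 5 muscle markers 2 could be tested and 1 was called, DES (desmin), which fell by 2.98, with MYOD1 and MYOG at 0 in all libraries and sums of 149.9 to 1084 and of 29.7 to 167. Of 4 adipocyte markers 2 could be tested and 1 was called, ADIPOQ (adiponectin), which rose by 3.11, with LEP at 0 in all libraries and sums of 20.3 to 167 and of 362 to 2326. None of the chondrocyte, endothelial, platelet and Schwann cell markers tested was called in limma (0 of 8), with 1 chondrocyte and 1 endothelial marker at an unadjusted p below 0.05, which 29.7% of all tested genes reached. The sums of the markers of chondrocytes, the cartilage cells that also make COMP, were 3.53 to 13.7 and 0 to 6.12, with COL9A1 at 0 in all libraries. The endothelial sums were 3.50 to 46.9 and 2.63 to 26.1, with CDH5 above 0 in 2 libraries. The platelet sums were 300.3 to 549 and 361 to 433, nearly all from ITGA2B, and the Schwann cell sums were 2.69 to 12.8 and 0 to 7.96.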

How the data were processed

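Reads were assigned by the authors to EquCab3.0 transcripts with Salmon (version 1.8) under a GC-bias correction, and summed to genes with tximport. The authors deposited log2 values, variance-stabilized and normalized between libraries, a form recognised from the values because the methods do not name it. DESeq2 (version 1.36), which the authors used for their own test, was not rerun. A gene was tested when 5 or more of the 10 libraries were above the lowest value. The test was limma (version 3.58.1) in R (version 4.3.3), two-sided, with a mean-variance trend and no donor term, adjusted over all tested genes by Benjamini-Hochberg. The alternative fit had the replicate number as a block, since the labels give the same 5 tenocyte lines in both groups, and same-numbered libraries correlated in their deviations between 0.367 and 0.506. Normalized counts came from inverting the transformation at its value for 0 reads. Reads per library are estimates from the spacing of low counts, of which 62.7% to 82.7% came within 0.15 of a whole number, where even spacing would give 30%. In a simulation of this comparison on 17841 genes, 181 of 200 genes changed by 2 on the log2 scale were found, with 3 unchanged genes called. The changed genes were drawn from those above a minimum mean count, the spread between libraries was capped, and no donor effect was simulated. The share found therefore does not cover genes with fewer reads or a wider spread, or the fit with the block.

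Genes named are the 5 thrombospondin genes, up to 5 called genes of each pathway list by smallest adjusted p, and the 3 nearest profiles of each called thrombospondin gene. Other listed genes are named for their role and were chosen after their values were seen. A gene of the TGF-β list is not reported here and was left out of its counts. The members and lists were chosen with earlier results of these data known. Of the 29196 gene names, 23397, with all 5 thrombospondin genes, matched RefSeq names of the TB-T2T horse assembly. The alternatives covered the donor block, filters, scale, normalization, variance model, thresholds and left-out libraries.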

Additional observations from a re-analysis of the deposited data

Results flagged for a closer look

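Of 46 groups of 5 libraries checked over the named genes, 1 held a library far from the other 4, where chance gives about 2.3. THBS4 was at 9.17 on the log2 scale in donor 4 in the PF + IL-1β group, and the other 4 donors were between 4.24 and 5.35. The same donor was also the highest in the PF group, at 8.76, where the next was 6.88. In normalized counts the library of donor 4 with IL-1β held 556 and the others at most 22.1.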

How the results depend on the processing

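THBS1, THBS2, THBS3, THBS4 and COMP kept their direction under the alternatives that could move it. These included quantile normalization and centring on the median, which moved the median log2 fold change of all genes from -0.01 to 0.02. The block could not change a log2 fold change, because each donor has 1 library in each group. Filters and thresholds could not change it either, so the direction under these was fixed in advance. The replicate block changed the call of none of the 5 genes, and among the named genes of the lists it changed those of COL1A1, COL1A2 and TGFBI, so that the TGF-β list went from 0 to 1 called. At an adjusted p below 0.01, 2 of the 5 genes were called, without THBS1 (-2.85) and THBS3 (-1.33), as were 719 genes in all, against 1202, 1 receptor and 1 protease. With no minimum fold change 2782 genes, 5 receptors and 1 TGF-β gene were called. Fits chosen after the data were seen gave 7 matrix partners and 1 TGF-β gene for the replicate block with centring. For the replicate block on log2 of normalized count plus 1 they gave 1809 genes, 1 TGF-β gene and THBS4 as called (-2.09).

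Leaving out single libraries or donors, with and without the block, gave between 762 and 1677 called genes and between 2 and 5 of the 5 thrombospondin genes. It gave 1 to 3 receptors, 3 to 7 matrix partners, 1 to 4 proteases and 0 to 2 TGF-β genes. The log2 fold change was between -3.40 and -2.28 for THBS1, -3.95 and -3.06 for THBS2, and -1.51 and -1.01 for THBS3. It was between -2.13 and -0.72 for THBS4, and -4.17 and -3.13 for COMP. The ratio of THBS2 to COMP changed sign without donor 2 (-0.62, with a highest value of 0.61). The ratio of THBS3 to THBS4 changed sign without donor 4 (0.62, with a lowest value of -0.59), and on log2 of normalized count plus 1 (0.74). The cause of these changes was not tested, except that fewer libraries also give a weaker test. No pair of genes passed in the sign-flip test over donors (0 of 10), which cannot reach the threshold. Few reads limit THBS4, where libraries with IL-1β held as little as 3.42 normalized counts.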

Other observations

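The genes beside the 5 thrombospondin genes on the chromosome were listed by position alone in the TB-T2T assembly, a choice made after the values of the members were seen. Of the 10 nearest protein-coding neighbours, 1 was called, where 6.68% of all tested genes were called. It was MUC1, a mucin beside THBS3, with a log2 fold change of -1.94 (adjusted p = 0.00389 from limma). MUC1 had means of 7.25 in the PF group and 5.31 in the PF + IL-1β group, where 0 reads stands at 3.43. The gaps to the neighbours ran from 151 bases (THBS3 to MTX1) to 839027 bases (THBS1 to RASGRP1). MTX1, the mitochondrial import gene on the other side of THBS3, had a log2 fold change of 0.30 (adjusted p = 0.234). Beside COMP, CRTC1 was at -0.25 (adjusted p = 0.139) and UPF1 at -0.39 (adjusted p = 0.0989). Beside THBS1, FSIP1 was at 0.18 (adjusted p = 0.631) and RASGRP1 at -0.56 (adjusted p = 0.232), and beside THBS2, SMOC2 was at -0.18 (adjusted p = 0.837) and WDR27 at -0.76 (adjusted p = 0.229). Beside THBS4, SERINC5 was at -0.54 (adjusted p = 0.0865) and MTX3 at -0.04 (adjusted p = 0.912).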
